A study of Mus musculus with 16 samples.

Results

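Axon guidance genes made up 71 of the 27179 rows of the deposited table. They were taken by symbol alone, in families chosen with earlier results of these data known. The families were the semaphorins of classes 3 to 7, the plexins, both neuropilins, and the ephrins with their Eph receptors. The Slits and Robos, the netrins and the Unc5 receptors were also taken. The pattern also took in Plxna4os1, an antisense RNA named after a plexin gene. RNA had been sequenced from cells that carry Pdgfrb, a platelet-derived growth factor receptor of mural cells and adipose progenitors. The cells came from C57BL/6 mice at postnatal day 7, from their epididymal white adipose depot, by flow cytometric sorting. The 4 sorted populations were mesothelial-like cells (MLCs, resembling the epithelium that covers the fat pad), smooth muscle cells (SMCs), adipocyte precursor cells (APCs) and fibro-inflammatory progenitors (FIPs). Each population had 4 libraries of 1 strain, age and depot, and the labels name no mutation, transgene or treatment for any of them. Neither the surface markers of each gate nor the number of mice behind a library is stated, nor whether the 4 libraries came from separate animals. All p-values below therefore rest on library-to-library spread alone, part or all of which may be technical.

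The libraries held 9.20 to 27.5 M reads, with a median of 21.57 M. Pdgfrb was lowest in MLCs, at 419 to 483 normalized counts. It was at 3429 to 4165 in SMCs, 4490 to 4870.5 in APCs and 2678 to 3131 in FIPs. The labels were checked against fixed markers. The sum of 8 mesothelial markers was 128149 to 131369 normalized counts in MLCs, 9423 to 14979 in SMCs, 3831 to 4314 in APCs and 2964 to 3504 in FIPs. The mesothelial list was thus also above the level of both progenitors (APCs and FIPs) in every SMC library. In APCs and FIPs most of that sum came from Wt1, which averaged 3996 and 2880 there and 3023 in SMCs. The sum of 8 contractile genes was 11752 to 12379 in MLCs, 14350 to 19224 in SMCs, 10351 to 13425 in APCs and 6877 to 7463 in FIPs. Myh11, the smooth muscle myosin of that list, averaged 1288 ± 79.9 in MLCs and 1262 ± 412 in SMCs (SD, n = 4 each, as for all means here). The contractile sum was thus highest in SMCs without Myh11 setting them apart from MLCs. Acta2, Tagln, Cnn1, Des and Lmod1 also averaged highest in SMCs. Mylk averaged highest in APCs (5006, with 3669 in SMCs) and Smtn in MLCs (5528, with 4227 in SMCs). The 6 adipocyte precursor markers summed to 51229 to 79268 in APCs and at most 38319 in any other library. Each averaged highest in APCs. The 5 fibro-inflammatory progenitor markers summed to 29387 to 32452 in FIPs and at most 10008.5 in any other library. Of these only Dpp4 averaged highest elsewhere, at 8805 in MLCs and 2053 in FIPs. The sum of 7 pericyte markers averaged 7733 in APCs and 6000 in SMCs. Notch3 and Vtn were higher in APCs, the other pericyte markers in SMCs. Sox10, a transcription factor of glia and neural crest cells, was at 44.2, 8.54, 14.9 and 52.1 in the SMC libraries and at 3.69 or less in the other 12. Markers of cells outside these populations differed within their lists. The 10 endothelial markers summed to 4852 to 5849 in MLCs, 3719 to 4510.3 in SMCs, 1164 to 1725 in APCs and 7918 to 8817 in FIPs. Most of that sum came from Esam (2444) and Kdr (2485) in MLCs, Cdh5 (1698) and Tek (1251) in SMCs and Tek (7827) in FIPs, while Pecam1 was at most 161 in any library. The 10 myeloid markers summed to 2480.5 to 3012 in MLCs, where Csf1r averaged 2210.5, and to 511 to 1299 in the other 12 libraries, with Ptprc at most 11.4 in any. The 8 Schwann cell markers summed to 3526 to 3727 in MLCs, where Mbp averaged 3332, and to 175 to 813 in the other 12 libraries. The 9 neuron markers summed to 1197 to 1258 in MLCs, where Stmn2 averaged 1142, and to 199 to 776 in the other 12. The part of these lists in the results was not tested. Among APCs, replicate 4 had 2388 normalized counts of the smooth muscle actin Acta2 and the other 3 had 156 to 221.

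Guidance molecules were first described as cues that steer growing axons, and most also act on vessels, epithelia and connective tissue. Most secreted semaphorins bind neuropilins that signal through plexins, often of the A type, whereas Sema3e can bind Plxnd1 directly. Membrane semaphorins bind plexins, Slits bind Robos, and the netrin Ntn1 binds Dcc, Neo1 and the Unc5 receptors. Ephrins bind Eph receptors on a neighbouring cell, where both partners can signal. In fat, such cues are known for guiding sympathetic nerves and vessels into the depot.

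Promoters of 5 genes show the sequence context of the members that stood highest in 1 population, picked after their values were seen: Sema3e for FIPs, Plxnd1 and Unc5c for APCs, Epha2 for MLCs and Ephb2 for SMCs. Each sequence is the 250 bases before a RefSeq start of the gene on GRCm38.p6, 5′ to 3′ on the strand of the gene. The windows of Ephb2 and Plxnd1, both on the minus strand, lie inside the RefSeq spans of these genes, which reach to 136836326 and 115995339. Capitals mark a GC box, GGGCGG, or the same box on the other strand, CCGCCC.
Epha2, chr4:141300971-141301220, plus strand: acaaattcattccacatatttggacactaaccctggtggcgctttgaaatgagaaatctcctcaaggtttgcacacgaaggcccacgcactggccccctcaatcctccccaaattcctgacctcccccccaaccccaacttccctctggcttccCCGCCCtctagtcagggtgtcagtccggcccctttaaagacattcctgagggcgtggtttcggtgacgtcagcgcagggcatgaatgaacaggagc
Ephb2, chr4:136836013-136836262, minus strand: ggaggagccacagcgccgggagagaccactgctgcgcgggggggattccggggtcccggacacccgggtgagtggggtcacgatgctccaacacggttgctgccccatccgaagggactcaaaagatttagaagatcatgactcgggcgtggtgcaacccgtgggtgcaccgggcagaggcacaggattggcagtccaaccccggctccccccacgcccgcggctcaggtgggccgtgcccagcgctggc
Plxnd1, chr6:115995006-115995255, minus strand: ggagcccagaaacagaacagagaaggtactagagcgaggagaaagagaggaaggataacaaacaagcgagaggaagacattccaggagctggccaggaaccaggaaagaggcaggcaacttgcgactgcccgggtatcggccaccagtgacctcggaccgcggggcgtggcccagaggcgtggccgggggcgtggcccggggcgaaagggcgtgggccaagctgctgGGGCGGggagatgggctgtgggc
Unc5c, chr3:141465314-141465563, plus strand: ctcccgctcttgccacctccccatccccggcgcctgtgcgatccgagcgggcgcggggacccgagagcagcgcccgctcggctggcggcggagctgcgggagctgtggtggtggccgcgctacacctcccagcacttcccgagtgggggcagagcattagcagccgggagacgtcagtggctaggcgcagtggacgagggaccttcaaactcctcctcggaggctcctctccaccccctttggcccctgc
Sema3e, chr5:14025026-14025275, plus strand: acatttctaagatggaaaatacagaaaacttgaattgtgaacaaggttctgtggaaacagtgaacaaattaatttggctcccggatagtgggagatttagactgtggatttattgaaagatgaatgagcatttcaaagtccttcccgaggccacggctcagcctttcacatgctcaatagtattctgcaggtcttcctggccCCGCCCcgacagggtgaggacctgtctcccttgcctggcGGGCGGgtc
The Sema3e window held 2 GC boxes, the Epha2 and Plxnd1 windows held 1 each, and the windows of Ephb2 and Unc5c held none. RefSeq windows were matched for 61 of the 71 members, 77 windows in all because some genes have several starts; the other 10 are Efnb3, Ntn1, Plxna1, Plxna4, Plxna4os1, Sema3b, Sema3f, Sema6a, Slit1 and Unc5d. A GC box on either strand was found in 54 of the 77 windows (70.1%) and in 32.7% of all 32851 windows of this length. The set of all windows was not limited here to protein-coding or expressed genes, so it differs in kind from the members. The TATA box TATAAA was found in 2 of the 77 windows and in 12.4% of all windows. The motif GCGNGGGCG of Egr1 and Wt1, which can overlap a GC box, was in 12 of the 77 and in 4.70% of all. Windows of the members were also richer in CG dinucleotides, with a median of 15 against 6 over all windows, and had a median GC content of 64.4% against 52.4%. Of the 15 windows that belong to genes called higher in MLCs than in each other population, 12 held a GC box and 1 the Egr1 and Wt1 motif.

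Of the 71 members, 63 had a normalized count of at least 10 in at least 4 libraries and were tested, among 15024 genes. For the other 8 the highest value in any library was 7.37 for Epha6, 30.95 for Epha8, 7.38 for Epha10, 6.77 for Robo3, 13.7 for Unc5d, 18.1 for Sema4f, 11.8 for Ntn5 and 2.14 for Plxna4os1. A gene was called at a limma adjusted p under 0.05 (Benjamini-Hochberg over all genes tested) and a difference of at least 2-fold on log2(normalized count + 1). By that rule 51 of the 63 were called in at least 1 of the 6 pairs of populations, or 81.0%, against 42.5% of all genes tested. In a bulk library, fewer cells with a transcript and less of it per cell cannot be told apart.

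Pairs with MLCs had the most members called. Compared with APCs, 21 members were higher in MLCs and 16 lower, where the background over all genes was 17.7% and 11.8% (29.6% either way). Compared with FIPs, 21 were higher in MLCs and 17 lower, with 18.6% and 12.5% of all genes (31.1% either way). Compared with SMCs, 18 were higher in MLCs and 17 lower, with 14.4% and 13.5% of all genes (27.9% either way). SMCs had 20 members higher and 8 lower than APCs, with 13.5% and 3.79% of all genes (17.2% either way), and 20 higher and 11 lower than FIPs, with 13.3% and 4.6% (17.9% either way). With quantile normalization the split between SMCs and APCs was 13 higher and 10 lower. APCs had 10 members higher and 8 lower than FIPs, with 5.22% and 5.2% of all genes (10.4% either way), and scaling to equal totals made it 14 higher and 7 lower. In the order MLCs against APCs, FIPs and SMCs, SMCs against APCs and FIPs, and APCs against FIPs, the share of members called either way was 58.7%, 60.3%, 55.6%, 44.4%, 49.2% and 28.6%. The median size of the difference on the log2 scale was 1.67, 1.36, 1.38, 0.87, 0.88 and 0.64 over the members, and 0.49, 0.50, 0.47, 0.34, 0.32 and 0.26 over all genes. The median signed difference was 0.17, 0.16, 0.025, 0.38, 0.20 and 0.079 over the members and stayed within 0.037 of 0 over all genes. Over all genes, too, the balance moved with the scaling: with equal totals the share of calls that were higher was 71.4% for MLCs against FIPs and 67.5% for APCs against FIPs (59.8% and 50.1% as reported). With quantile normalization it was 55.5% for SMCs against APCs and 54.4% for SMCs against FIPs (78.03% and 74.3% as reported). The pairs share libraries, so these counts are not independent of one another.

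**Figure D1:**
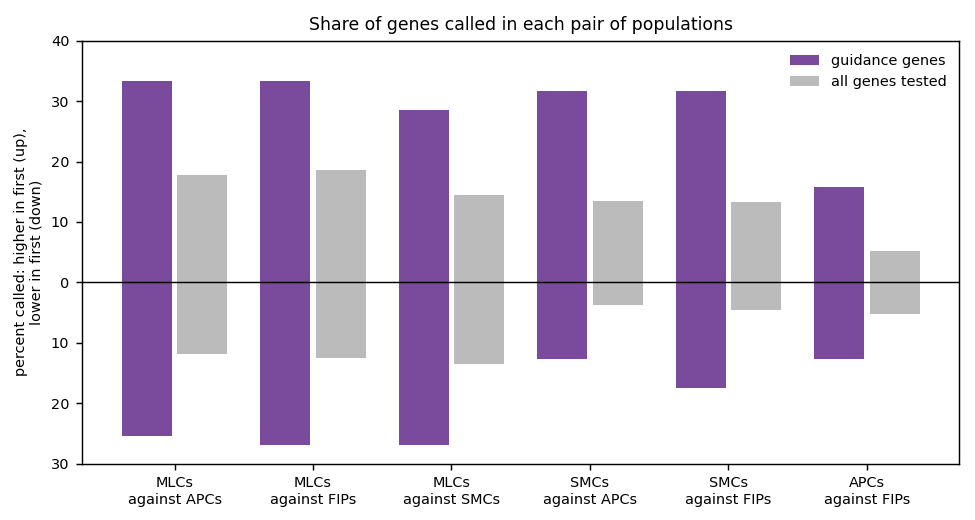
Percent of the 63 guidance genes tested (purple) and of all 15024 genes tested (grey) called higher (upward bars) or lower (downward bars) in the first population of each pair. In MLCs against APCs, 33.3% of the guidance genes were higher and 25.4% lower, and in APCs against FIPs 15.9% were higher and 12.7% lower.

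Of the members called for 1 population against all 3 others, most were called for MLCs, which also had the most such calls over all genes. There 13 were higher in all 3 pairs (20.6% of members; 10.6% of all genes): Plxna4, Plxnb1, Epha2, Epha5, Ephb1, Ephb6, Efna1, Efna2, Efnb2, Sema3a, Sema3f, Sema4a and Ntng1. Another 11 were lower in MLCs in all 3 pairs (17.5% of members; 7.89% of all genes): Slit2, Slit3, Robo1, Robo2, Nrp1, Sema5b, Sema6b, Sema6c, Plxnc1, Ephb2 and Unc5c. SMCs had 2 higher (Ephb2 and Ntn3, 3.17% of members and 2.75% of all genes) and 2 lower (Robo4 and Unc5a, 3.17% of members and 0.313% of all genes). APCs had 2 higher (Plxnd1 and Unc5c, 3.17% of members and 1.07% of all genes) and 3 lower (Ntn4, Sema3b and Sema3e, 4.76% of members and 1.84% of all genes). FIPs had 1 higher (Sema3e, 1.59% of members and 1.5% of all genes) and 5 lower (Efnb3, Epha2, Epha4, Sema3f and Unc5b, 7.94% of members and 1.96% of all genes). The lists of lower members were less firm for APCs and FIPs. Of the 3 in APCs, 1 kept its calls with a pseudocount of 8, with quantile normalization or without SMCs replicate 3, where Ntn4 and Sema3e were no longer called in SMCs against APCs. That call was lost for Sema3e in 8 alternatives and for Ntn4 in 5. Of the 5 in FIPs, 3 kept theirs with a pseudocount of 8 or without FIPs replicate 1 or 3, where Sema3f and Unc5b lost the call against APCs, and 2 with quantile normalization, where Epha4 also lost the call against MLCs. In APCs against FIPs, the call was lost for Sema3f in 8 alternatives and for Unc5b in 7. Of the 11 in MLCs, Sema5b lost its call against FIPs with equal totals or a pseudocount of 8.

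**Figure D2:**
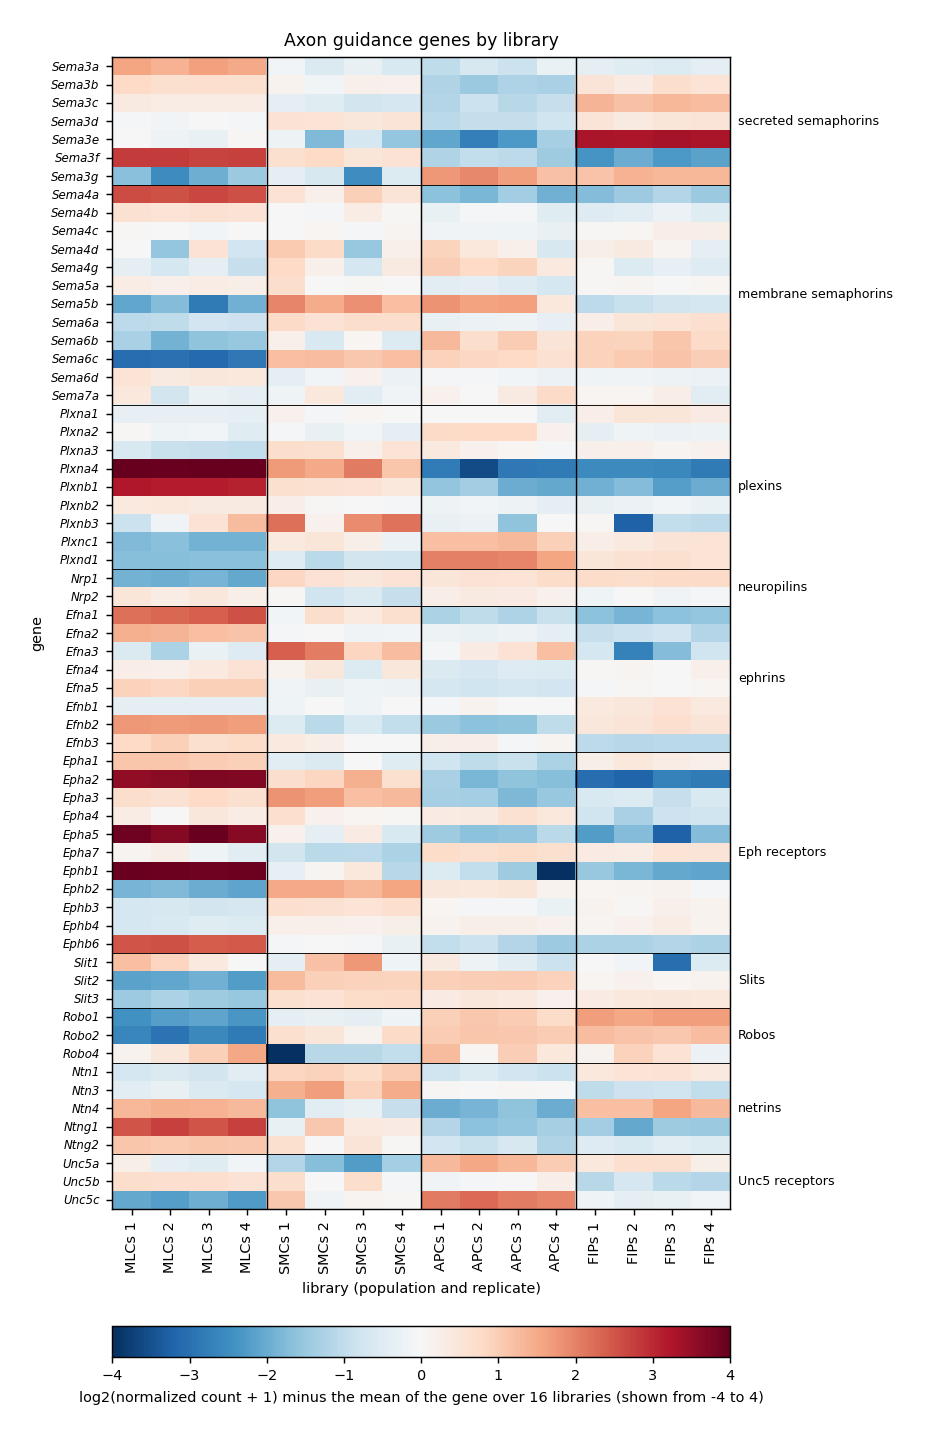
Each row is 1 of the 63 guidance genes tested, each column 1 library, and colour gives log2(normalized count + 1) minus the mean of that gene over the 16 libraries, shown from -4 to 4. The MLC columns hold the most extreme rows (Plxna4, Epha2 and Ephb1 high, Sema6c and Robo2 low), and Sema3e is high in the 4 FIP libraries.

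Levels can be compared between genes per kilobase of exon. On that scale the secreted semaphorins summed to 3189 ± 72.1 normalized counts per kb in MLCs and 2025 ± 111 in SMCs, with 1024 ± 70.7 in APCs and 3821 ± 187 in FIPs (SD over 4 libraries), the lowest level being that of APCs. With every library scaled to the same total the MLC sum was 3516 and the FIP sum 3336, so the order of those 2 populations depends on the scaling. Slits summed to 625 ± 43.4 per kb in MLCs, against 2797 ± 144 in SMCs, 2245 ± 169 in APCs and 2231 ± 64.2 in FIPs. Eph receptors summed to 2402 ± 36.7 per kb in MLCs and 1568 ± 41.6 in SMCs, with 1007 ± 47.6 in APCs and 1072 ± 41.2 in FIPs. Robos were scarce, at 15.6 ± 2.46 per kb in MLCs, against 50.9 ± 5.19 in SMCs, 106 ± 8.41 in APCs and 151 ± 4.67 in FIPs. All ligands together summed to 8607 ± 67.6 per kb in MLCs and 9378 ± 259 in SMCs, with 6386 ± 313 in APCs and 10481 ± 306 in FIPs. With equal totals the ligand sum was 9489 in MLCs, 9544 in SMCs and 9150 in FIPs, so FIPs were the highest only as deposited. All receptors summed to 5477 ± 51.7, 4325 ± 303, 4585 ± 347 and 3980 ± 148 in the same order of populations.

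**Figure D3:**
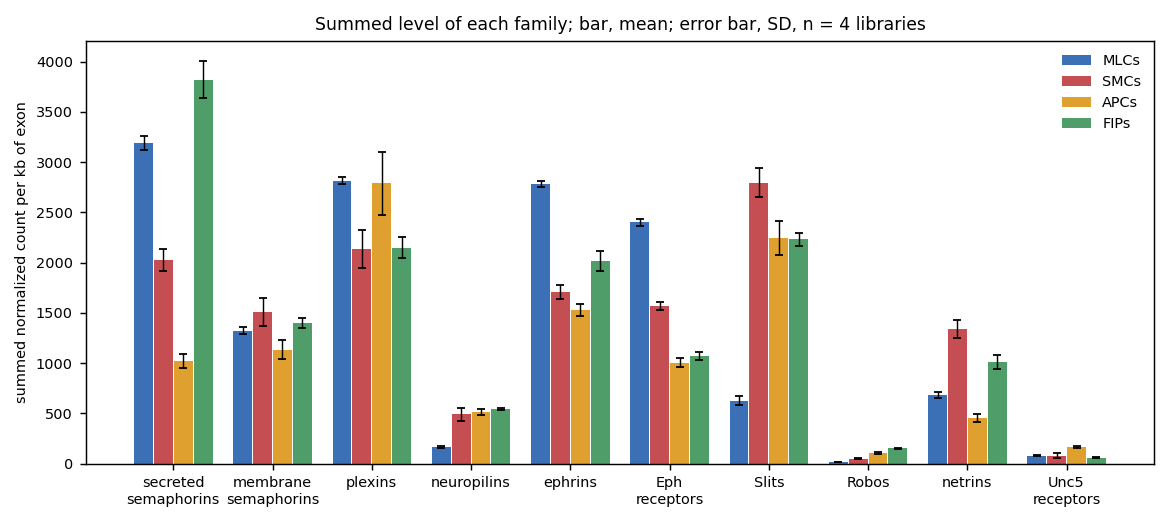
Summed normalized counts per kilobase of exon for each family of guidance genes in MLCs, SMCs, APCs and FIPs; bars are means and error bars SDs over 4 libraries. The secreted semaphorins are lowest in APCs (1024 per kb), the Slits lowest in MLCs (625 per kb) and the Eph receptors highest in MLCs (2402 per kb).

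Among the secreted semaphorins, Sema3c made up most of the level in FIPs and Sema3f was highest in MLCs. Sema3c, which acts through neuropilins and plexins and patterns vessels of the heart, made up 41.7% of the summed per-kb level of this family in MLCs, against 35.7% in SMCs, 51.5% in APCs and 67.4% in FIPs. Its normalized counts were 9846, 9399, 9324 and 9442 in MLCs, 5829.9, 5419.7, 4622 and 4806 in SMCs, 3379.9, 4196, 3514 and 3991 in APCs and 19350.1, 17316, 18952 and 17992 in FIPs. No 2 populations overlapped, and FIPs exceeded SMCs (SMCs minus FIPs, log2 -1.84 ± 0.076 SE, limma adjusted p = 2.18e-13). Against MLCs the difference was short of 2-fold and not called (MLCs minus FIPs, log2 -0.95 ± 0.076 SE).

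Sema3f, the main ligand of Nrp2, had 4471, 4466, 4193 and 4248 normalized counts in MLCs, 996, 1123, 907 and 952 in SMCs, 276, 324, 310.3 and 239 in APCs and 125, 161, 129.8 and 145 in FIPs. The 4 populations formed 4 separate levels in that order. MLCs exceeded FIPs by log2 4.95 ± 0.096 SE (limma adjusted p = 3.30e-19), APCs by log2 3.92 ± 0.096 SE and SMCs by log2 2.13 ± 0.096 SE. APCs exceeded FIPs by log2 1.03 ± 0.096 SE (limma adjusted p = 4.83e-08), so close to the 2-fold limit that edgeR and several fits without 1 library did not call it. Sema3f was 26.2% of the secreted semaphorin level in MLCs and 9.45% in SMCs, with 5.42% in APCs and 0.71% in FIPs.

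Sema3e, a ligand of Plxnd1, had 53.6, 46.5, 43.5 and 54.6 normalized counts in MLCs, 46.3, 14.9, 32.03 and 17.4 in SMCs, 11.8, 7.05, 10.01 and 20.8 in APCs and 521, 507, 542 and 517 in FIPs. All FIP libraries lay far above all others, while the values of SMCs overlapped those of MLCs and of APCs. FIPs exceeded MLCs (MLCs minus FIPs, log2 -3.38 ± 0.30 SE, limma adjusted p = 6.25e-09) and SMCs (SMCs minus FIPs, log2 -4.33 ± 0.30 SE, limma adjusted p = 4.74e-10). Even so it was a minor secreted semaphorin by level, 1.47% of the family in FIPs.

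Sema3a, a repellent that signals through Nrp1, was highest in MLCs, with 1849, 1633, 1915 and 1765 normalized counts, against 569.6, 417, 508 and 405 in SMCs, 306, 396, 337 and 519 in APCs and 483, 441, 420.1 and 478 in FIPs. SMCs, APCs and FIPs overlapped one another, and none of their pairs was called. MLCs exceeded them by log2 2.23 ± 0.13 SE over APCs, 1.97 ± 0.13 SE over FIPs and 1.92 ± 0.13 SE over SMCs (limma adjusted p = 1.08e-11, 6.55e-11 and 1.45e-10 in that order). Sema3b and Sema3d had their lowest mean in APCs, as did Sema3a, Sema3c and Sema3e. Sema3b averaged 1529 ± 79.3 in MLCs, against 1028 ± 98.5 in SMCs, 386 ± 33.6 in APCs and 1378 ± 147 in FIPs. APCs were lower than every other population (APCs minus FIPs, log2 -1.83 ± 0.085 SE, limma adjusted p = 2.49e-12). Sema3d averaged 4865 ± 131 in MLCs and 7335 ± 254 in SMCs, with 2662 ± 212 in APCs and 7081 ± 395 in FIPs. In APCs it was lower than in SMCs (SMCs minus APCs, log2 1.46 ± 0.058 SE) and FIPs (APCs minus FIPs, log2 -1.41 ± 0.058 SE), while MLCs minus APCs was short of 2-fold (log2 0.87 ± 0.058 SE). Sema3g, the seventh member, was scarce, at 7.23 ± 2.36 in MLCs, against 15.98 ± 7.98 in SMCs, 92.3 ± 19.6 in APCs and 72.00 ± 5.35 in FIPs, and called higher in both progenitors than in MLCs and SMCs.

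The receptors of the secreted semaphorins were divided differently between the populations. Nrp1, the co-receptor that Sema3a shares with vascular endothelial growth factor, had 753, 720.5, 777 and 679 normalized counts in MLCs, 5007, 4159, 3877 and 4236 in SMCs, 3913, 4161, 4096 and 4686 in APCs and 4653, 4619.8, 4784 and 4818 in FIPs. MLCs lay below every other library, and the other 3 populations overlapped. The log2 difference was -2.52 ± 0.071 SE for MLCs minus APCs, -2.69 ± 0.071 SE for MLCs minus FIPs and -2.55 ± 0.071 SE for MLCs minus SMCs (limma adjusted p = 9.28e-17, 3.32e-17 and 1.43e-16 in that order). Nrp2, its relative, was called in no pair and averaged 1062 ± 91.1 in MLCs and 573 ± 186 in SMCs, with 993 ± 54.4 in APCs and 771 ± 42.6 in FIPs. Per kb, Nrp1 was therefore 45.5% of both neuropilins in MLCs, against 90.3% in SMCs, 83.6% in APCs and 88.1% in FIPs.

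Plxna4, an A-type plexin that transmits Sema3a signals, had the widest range of means of all members tested. It had 7194, 6724, 7559 and 7074 normalized counts in MLCs, 1425, 1246, 1845 and 940.1 in SMCs, 61.7, 35.2, 59.3 and 60.5 in APCs and 74.2, 73.04, 72.6 and 59.9 in FIPs. Values of MLCs and SMCs overlapped nothing else, and APCs and FIPs overlapped each other. The log2 difference was 7.05 ± 0.17 SE for MLCs minus APCs (limma adjusted p = 1.43e-17), 2.43 ± 0.17 SE for MLCs minus SMCs (limma adjusted p = 2.91e-10) and 4.62 ± 0.17 SE for SMCs minus APCs (limma adjusted p = 9.41e-14). The other A-type plexins were flatter: Plxna1 and Plxna2 were called in no pair, and Plxna3 was lower in MLCs (596 ± 73.8) than in SMCs (1553 ± 218; log2 -1.38 ± 0.10 SE) and FIPs (1213 ± 38.8; log2 -1.03 ± 0.10 SE). With equal totals or without MLCs replicate 4 its call against FIPs was lost. Plxna1 averaged 2955 ± 43.7 in MLCs and 3895 ± 276 in SMCs, with 3494 ± 505 in APCs and 4928 ± 373 in FIPs. Plxna2 averaged 531 ± 80.2 in MLCs, against 521 ± 56.01 in SMCs, 948 ± 177 in APCs and 509 ± 31.3 in FIPs. Plxna1 shares 10.7% of its exon length with an antisense gene, so its reads are uncertain without a stated strand setting.

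Plxnd1, the Sema3e receptor, had 737, 750.1, 758 and 759.7 normalized counts in MLCs, 1695, 1137, 1454 and 1392 in SMCs, 9881, 9865, 9389.9 and 7289 in APCs and 3404, 3660.1, 3737 and 3543 in FIPs. No populations overlapped, and APCs were the highest although replicate 4, the APC library with high Acta2, lay under the other 3; no call of Plxnd1 was lost without it. APCs exceeded FIPs by log2 1.33 ± 0.099 SE (limma adjusted p = 2.05e-09), SMCs (SMCs minus APCs, log2 -2.68 ± 0.099 SE) and MLCs (MLCs minus APCs, log2 -3.59 ± 0.099 SE). Plxnd1 was 3.65% of the summed per-kb level of the plexins in MLCs and 9.07% in SMCs, with 44.6% in APCs and 22.9% in FIPs. The ligand Sema3e was thus at its lowest mean in the population where its receptor was at its highest. That APC level of Sema3e (7.05 to 20.8) overlapped the SMC level, and its call in SMCs against APCs was lost in 8 alternatives.

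Plxnb1, a B-type plexin and receptor of Sema4d, had 4094, 3938, 3877 and 3746 normalized counts in MLCs, 695, 679, 666 and 595 in SMCs, 149, 167, 112 and 105 in APCs and 116, 131, 94.5 and 112 in FIPs. MLCs were highest, SMCs next, and the progenitors low and overlapping. The log2 difference was 5.11 ± 0.12 SE for MLCs minus FIPs (limma adjusted p = 8.63e-18), 2.57 ± 0.12 SE for MLCs minus SMCs and 2.32 ± 0.12 SE for SMCs minus APCs. Plxnb2, the receptor of Sema4c, was the most abundant plexin in MLCs, SMCs and FIPs and passed in no pair, at 10509 ± 149 in MLCs, against 8473 ± 861 in SMCs, 6944 ± 519 in APCs and 6881 ± 401 in FIPs. Plxnc1, the receptor of Sema7a, was low in MLCs, at 33.95 ± 2.72, against 144 ± 30.4 in SMCs, 274 ± 26.1 in APCs and 165 ± 14.4 in FIPs. All 3 differences from MLCs were called (log2 -2.03 ± 0.15 SE, -2.97 ± 0.15 SE and -2.24 ± 0.15 SE). Plxnb3, at most 43.2 in any library, was higher in SMCs than in APCs and FIPs, and its call in MLCs against FIPs was lost in most fits without 1 library.

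Of the 12 membrane semaphorins tested, Sema6c and Sema4a showed the widest gaps, in opposite directions. Sema6c, a ligand for A-type plexins, had 77.9, 80.3, 73.8 and 88.9 normalized counts in MLCs, 1500.4, 1521, 1351 and 1475 in SMCs, 1214, 1155, 1127 and 975 in APCs and 1235, 1334, 1416 and 1282 in FIPs. MLCs were more than 10-fold below each of the others (MLCs minus SMCs, log2 -4.17 ± 0.076 SE, limma adjusted p = 2.72e-19), which lay within 2-fold of one another. Sema4a, a class 4 semaphorin also known from immune cells, was highest in MLCs, with 505, 477, 519 and 488 in MLCs, 122, 93.9, 158 and 115 in SMCs, 25.4, 22.2, 30.02 and 20.8 in APCs and 23.7, 28.7, 35.3 and 28.1 in FIPs. Its log2 difference was 4.30 ± 0.17 SE for MLCs minus APCs (limma adjusted p = 1.50e-14), 2.04 ± 0.17 SE for MLCs minus SMCs and 2.03 ± 0.17 SE for SMCs minus FIPs, and APCs minus FIPs missed the threshold (log2 -0.23 ± 0.17 SE, limma adjusted p = 0.299).

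Sema5b marked SMCs and APCs. Its values were 11.7, 15.2, 6.64 and 13.2 in MLCs, 205, 149, 188 and 123 in SMCs, 185, 164, 168 and 70.9 in APCs and 24.7, 27.7, 31.5 and 31.7 in FIPs. The SMC and APC libraries overlapped and lay above all FIP libraries, which lay above all MLC libraries. SMCs exceeded FIPs by log2 2.46 ± 0.28 SE (limma adjusted p = 4.88e-07) and APCs exceeded FIPs by log2 2.22 ± 0.28 SE (limma adjusted p = 2.77e-06). Sema6b, a further plexin A ligand, averaged 34.1 ± 5.77 in MLCs and 91.1 ± 26.01 in SMCs, lower in both than its 195 ± 47.4 in APCs and 196 ± 18.6 in FIPs. The SMC calls of Sema6b were less firm, since the one against FIPs was lost with equal totals and the one against APCs without SMCs replicate 2 or 4 or APCs replicate 1. Sema6a was lower in MLCs (286 ± 27.1) than in SMCs (869 ± 41.8) and FIPs (761 ± 90.1). The 2 membrane semaphorins with the highest levels per kb were called in no pair. Sema5a averaged 10274 ± 351 in MLCs and 10100.1 ± 2627 in SMCs, with 6079 ± 595 in APCs and 8997 ± 262 in FIPs. Sema4c averaged 1493 ± 69.7 in MLCs, against 1540.5 ± 70.8 in SMCs, 1328 ± 74.8 in APCs and 1689.6 ± 134 in FIPs. Sema4c shares 7.27% of its exon length with another gene. Among the other 3 that were never called, Sema6d averaged 1791 ± 95.7 in MLCs and 1205 ± 209 in SMCs, with 1220.2 ± 66.8 in APCs and 1154 ± 27.2 in FIPs. Sema4d averaged 11.9 ± 7.53 in MLCs, against 18.9 ± 11.4 in SMCs, 17.8 ± 7.59 in APCs and 15.4 ± 3.26 in FIPs, and Sema7a, a lipid-anchored semaphorin, 23.01 ± 8.55 in MLCs and 25.3 ± 6.91 in SMCs, with 33.6 ± 8.17 in APCs and 26.5 ± 5.28 in FIPs. Sema4b passed only in MLCs against FIPs, just over the limit (log2 1.01 ± 0.096 SE), and Sema4g was higher in APCs than in MLCs (MLCs minus APCs, log2 -1.35 ± 0.25 SE) and FIPs (APCs minus FIPs, log2 1.10 ± 0.25 SE).

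Slits and Robos were low together in MLCs. Slit2, a secreted repellent that binds Robo1 and Robo2, had 741, 769.5, 867 and 693 normalized counts in MLCs, 7893, 6261, 6232 and 6009 in SMCs, 6269.6, 6459.9, 6598 and 6147 in APCs and 3483, 3699.9, 3430.4 and 3618 in FIPs. SMCs and APCs overlapped at the top, FIPs lay between, and every MLC library was far below (MLCs minus SMCs, log2 -3.10 ± 0.077 SE, limma adjusted p = 2.45e-17). Slit3, known for its part in muscle, vessels and bone, was the most abundant Slit per kb in all 4 populations, 94.8% of the family in MLCs, against 90.6% in SMCs, 88.8% in APCs and 93.7% in FIPs. It had 3522, 3957, 3560.2 and 3353 in MLCs, 15081, 14229, 15999.8 and 16227 in SMCs, 12037, 13061, 12535 and 10756 in APCs and 12156, 12716, 13104 and 12752 in FIPs. MLCs were again below all other libraries (MLCs minus SMCs, log2 -2.10 ± 0.066 SE, limma adjusted p = 9.44e-16), and no other pair was called. Slit1 did not exceed 25.6 in any library, and its 2 calls, in MLCs and in SMCs against FIPs, were lost in several alternatives.

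Robo1 had 116, 134, 145 and 123 normalized counts in MLCs, 477, 506, 485 and 548 in SMCs, 1214, 1306, 1261 and 1034 in APCs and 1969, 1806, 1972 and 1996 in FIPs. The populations did not overlap, with MLCs the lowest and FIPs the highest. The log2 difference was -3.90 ± 0.082 SE for MLCs minus FIPs (limma adjusted p = 1.14e-18), -1.95 ± 0.082 SE for MLCs minus SMCs and -1.25 ± 0.082 SE for SMCs minus APCs, and APCs minus FIPs, at -0.69 ± 0.082 SE, was short of 2-fold. Robo2 had 36.03, 27.9, 36.9 and 30.8 in MLCs, 347, 318, 248 and 384 in SMCs, 458, 487, 477 and 451 in APCs and 528, 499, 478 and 534 in FIPs. Only the 3 pairs with MLCs passed for Robo2 (MLCs minus FIPs, log2 -3.92 ± 0.12 SE, limma adjusted p = 3.21e-16). Robo4, a receptor of endothelial cells, was scarce, at 16.8, 21.1, 30.2 and 45.8 in MLCs, 0, 6.40, 6.41 and 7.15 in SMCs, 38.03, 16.1, 30.7 and 20.8 in APCs and 16.8, 29.6, 22.9 and 12.7 in FIPs, and lower in SMCs in all 3 pairs.

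**Figure D4:**
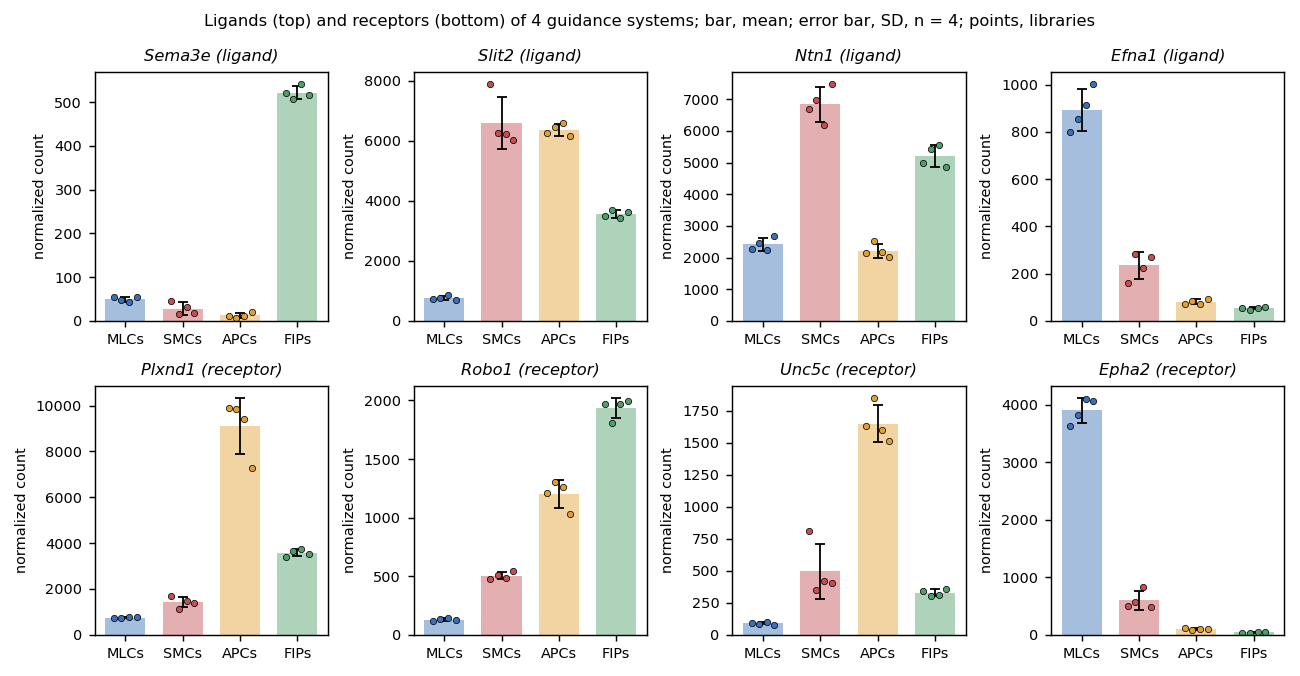
Normalized counts of a ligand (top) and a receptor (bottom) of each of 4 guidance systems in MLCs, SMCs, APCs and FIPs; bars are means, error bars SDs and points the 4 libraries. Sema3e is highest in FIPs (522) and Plxnd1 in APCs (9106), Slit2 and Robo1 are lowest in MLCs (768 and 129), and Efna1 and Epha2 are both highest in MLCs (892 and 3900).

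Of the netrins, Ntn1 and Ntn3 had their highest mean in SMCs, and Ntn4, Ntng1 and Ntng2 in MLCs. Ntn1, the founding netrin and a ligand of Dcc, Neo1 and the Unc5 receptors, had 2279.7, 2464, 2226 and 2688 normalized counts in MLCs, 6702, 6967, 6192 and 7489.8 in SMCs, 2129.9, 2525, 2176 and 2023 in APCs and 4978, 5429.6, 5557 and 4857 in FIPs. SMCs and FIPs lay above MLCs and APCs, with no overlap between those pairs, and MLCs and APCs overlapped. SMCs exceeded APCs by log2 1.63 ± 0.077 SE (limma adjusted p = 2.30e-12) and FIPs exceeded APCs (APCs minus FIPs, log2 -1.24 ± 0.077 SE, limma adjusted p = 1.54e-10). That second call was lost when libraries were scaled to equal totals, as was the call of Ntn1 in MLCs against FIPs (log2 -1.11 ± 0.077 SE). Ntn3 was highest in SMCs, with 199, 219, 178 and 166 normalized counts in MLCs, 717, 860.2, 506 and 745 in SMCs, 274, 272, 273 and 266 in APCs and 132, 151, 153 and 133 in FIPs. SMCs exceeded MLCs (MLCs minus SMCs, log2 -1.87 ± 0.13 SE, limma adjusted p = 1.53e-10), APCs (log2 1.35 ± 0.13 SE) and FIPs (log2 2.28 ± 0.13 SE).

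Ntn4, a netrin of basement membranes, was shared by MLCs and FIPs. It had 406, 431, 423 and 396 normalized counts in MLCs, 52.6, 122, 130.2 and 84.8 in SMCs, 39.7, 44.3, 52.9 and 39.8 in APCs and 377, 372, 482 and 398 in FIPs. MLCs and FIPs overlapped (log2 0.032 ± 0.20 SE, limma adjusted p = 0.899) and both exceeded APCs (MLCs minus APCs, log2 3.21 ± 0.20 SE, limma adjusted p = 2.77e-11, and APCs minus FIPs, log2 -3.18 ± 0.20 SE, limma adjusted p = 2.06e-10). The membrane-anchored netrins Ntng1 and Ntng2 were higher in MLCs than in both progenitors. Ntng1 averaged 95.7 ± 8.57 in MLCs and 20.3 ± 8.53 in SMCs, with 4.86 ± 0.864 in APCs and 4.26 ± 1.003 in FIPs, and Ntng2, which shares 13.99% of its exon length with another gene, 547 ± 12.6 in MLCs, against 322 ± 71.98 in SMCs, 141 ± 22.5 in APCs and 178 ± 10.3 in FIPs.

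Of the netrin receptors, Unc5c stood highest in APCs. It had 92.2, 83.7, 98.1 and 80.1 normalized counts in MLCs, 813, 349, 418 and 403 in SMCs, 1627, 1851, 1598 and 1516 in APCs and 342, 303, 312 and 356 in FIPs. All APC libraries lay above all others, and SMCs replicate 1 stood above the other SMC libraries. APCs exceeded FIPs by log2 2.32 ± 0.18 SE (limma adjusted p = 2.51e-09), SMCs (SMCs minus APCs, log2 -1.81 ± 0.18 SE) and MLCs (MLCs minus APCs, log2 -4.20 ± 0.18 SE). Unc5a, with 87.1, 58.4, 53.1 and 68.7 in MLCs, 32.6, 22.4, 14.9 and 28.6 in SMCs, 184, 221, 189 and 150.4 in APCs and 101, 120.2, 116 and 87.1 in FIPs, was lower in SMCs than in each other population (SMCs minus APCs, log2 -2.91 ± 0.22 SE, limma adjusted p = 1.34e-09). Unc5b was lowest in FIPs, with 369, 357, 361 and 338 in MLCs, 367, 223, 369 and 212 in SMCs, 206, 211, 227 and 273 in APCs and 105, 141, 106 and 99.8 in FIPs. Its call in APCs against FIPs (log2 1.02 ± 0.17 SE, limma adjusted p = 5.48e-05) was lost without APCs replicate 4 or any 1 of FIPs replicates 1, 3 and 4. Per kb, Unc5b was the leading Unc5 in MLCs (73.3%) and SMCs (59.3%), Unc5c in APCs (51.3%) and Unc5a in FIPs (41.3%).

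Of the 5 ephrins of the A class, Efna1 and Efna2 were higher in MLCs than in all 3 other populations and Efna5 than in SMCs and APCs. Efna1, a lipid-anchored ligand of Epha2, had 799, 852, 915 and 1004 normalized counts in MLCs, 159, 283, 224 and 272 in SMCs, 71.8, 84.6, 72.2 and 93.4 in APCs and 54.4, 47.1, 54.4 and 58.9 in FIPs. The 4 populations were separate, and MLCs exceeded APCs by log2 3.46 ± 0.15 SE (limma adjusted p = 1.14e-13), FIPs by log2 4.03 ± 0.15 SE and SMCs by log2 1.95 ± 0.15 SE. Efna2 averaged 794 ± 72.2 in MLCs and 309 ± 12.5 in SMCs, with 274 ± 13.7 in APCs and 172 ± 20.9 in FIPs, with 3 calls for MLCs (log2 1.36 ± 0.092 SE over SMCs, limma adjusted p = 1.23e-10). Efna5, the most abundant A ephrin per kb in every population, averaged 2964 ± 125 in MLCs, against 1365 ± 64.4 in SMCs, 930.5 ± 27.9 in APCs and 1579.7 ± 77.1 in FIPs. It passed in MLCs against APCs (log2 1.67 ± 0.053 SE) and SMCs (log2 1.12 ± 0.053 SE) but not FIPs (log2 0.91 ± 0.053 SE). Efna3 reached at most 32.6 in any library and shares 14.1% of its exon length with an antisense gene; its call in MLCs against APCs was lost in most alternatives.

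Efnb2, a transmembrane ephrin known from arteries, had 1681, 1669, 1685 and 1634 normalized counts in MLCs, 345, 238, 329 and 253 in SMCs, 183, 163, 167 and 249 in APCs and 689.6, 727, 803 and 724 in FIPs. MLCs were highest and FIPs next, while SMCs and APCs overlapped. MLCs exceeded APCs by log2 3.15 ± 0.12 SE (limma adjusted p = 1.95e-14) and FIPs by log2 1.18 ± 0.12 SE, and FIPs exceeded APCs (APCs minus FIPs, log2 -1.96 ± 0.12 SE, limma adjusted p = 2.06e-10). Ephb4, the receptor that pairs with Efnb2 and is known from veins, was called in no pair, at 1361 ± 79.2 in MLCs and 2336 ± 33.2 in SMCs, with 2324 ± 79.7 in APCs and 2309 ± 144 in FIPs. Efnb3 was lowest in FIPs, with 433, 480.3, 391 and 414 in MLCs, 325, 298, 252 and 245 in SMCs, 294, 301, 241 and 271 in APCs and 121, 116, 118 and 117 in FIPs (APCs minus FIPs, log2 1.22 ± 0.10 SE, limma adjusted p = 1.25e-08). Efna4 was called in no pair, at 97.7 ± 11.3 in MLCs, against 85.8 ± 24.8 in SMCs, 50.5 ± 2.22 in APCs and 80.3 ± 5.34 in FIPs, and shares 10.5% of its exon length with another gene. Efnb1, the ephrin with the highest mean per kb in each population (in MLCs 26.9% of the family beside 26.4% for Efna5), was called in no pair either and averaged 2579.8 ± 35.4 in MLCs and 3122 ± 180.2 in SMCs, with 3363 ± 213 in APCs and 4556 ± 273 in FIPs.

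Epha2, a receptor of epithelial cells that binds Efna1, had 3631, 3811, 4096 and 4061 normalized counts in MLCs, 504, 566, 835 and 482 in SMCs, 126, 85.6, 102 and 93.4 in APCs and 36.6, 32.4, 46.8 and 42.6 in FIPs. All 6 pairs were called and none overlapped, in the order MLCs, SMCs, APCs, FIPs. MLCs exceeded FIPs by log2 6.60 ± 0.15 SE (limma adjusted p = 5.21e-18) and SMCs by log2 2.74 ± 0.15 SE (limma adjusted p = 7.12e-12), and APCs exceeded FIPs by log2 1.34 ± 0.15 SE (limma adjusted p = 7.96e-07). Ephb6, a member without kinase activity, was of like form, with 2368, 2439, 2238 and 2308 in MLCs, 393, 408, 397 and 338 in SMCs, 209, 228, 183 and 150.4 in APCs and 172, 172, 185 and 174 in FIPs. It was higher in MLCs in all 3 pairs (MLCs minus FIPs, log2 3.73 ± 0.10 SE, limma adjusted p = 4.54e-17). Epha2 and Ephb6 were 34.7% and 25.8% of the Eph receptor level per kb in MLCs, 8.14% and 6.49% in SMCs, 2.16% and 5.05% in APCs, and 0.789% and 4.35% in FIPs. In SMCs, APCs and FIPs the largest share was that of Ephb4.

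Ephb1 and Epha5 were near the detection limit outside MLCs. Ephb1 had 305, 301, 297 and 304 normalized counts in MLCs, 14.7, 20.3, 25.6 and 8.17 in SMCs, 12.7, 9.06, 6.43 and 0 in APCs and 5.94, 4.62, 3.82 and 3.63 in FIPs (MLCs minus SMCs, log2 4.16 ± 0.56 SE, limma adjusted p = 2.35e-06). Epha5 had 138, 118, 145 and 116 in MLCs, 9.48, 6.40, 10.7 and 5.11 in SMCs, 2.54, 2.01, 2.14 and 3.46 in APCs and 0.989, 1.85, 0 and 1.81 in FIPs (MLCs minus SMCs, log2 3.91 ± 0.36 SE, limma adjusted p = 1.42e-08). For both genes, every MLC library lay above every library of the other populations. Epha1, which shares 6.01% of its exon length with Zyx on the other strand, averaged 1279.7 ± 76.3 in MLCs, against 486 ± 93.6 in SMCs, 314 ± 42.9 in APCs and 760.4 ± 52.8 in FIPs. It was higher in MLCs than in SMCs (log2 1.41 ± 0.11 SE) and APCs (log2 2.03 ± 0.11 SE) and lower in APCs than in FIPs (log2 -1.28 ± 0.11 SE, limma adjusted p = 1.95e-08).

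Ephb2, a receptor of B ephrins, ran the other way. It had 308, 331, 285 and 261 normalized counts in MLCs, 3176, 3188, 2816 and 3328 in SMCs, 1538, 1489, 1571 and 1233 in APCs and 1183, 1198, 1231 and 1083 in FIPs. The 4 populations did not overlap, with SMCs highest and MLCs lowest. SMCs exceeded MLCs (MLCs minus SMCs, log2 -3.40 ± 0.083 SE, limma adjusted p = 2.08e-17), APCs by log2 1.10 ± 0.083 SE (limma adjusted p = 1.69e-09) and FIPs by log2 1.41 ± 0.083 SE. Ephb3, its close relative, averaged 580.01 ± 12.7 in MLCs and 1441 ± 55.98 in SMCs, with 891 ± 82.9 in APCs and 1024 ± 44.1 in FIPs, and passed in MLCs against SMCs (log2 -1.31 ± 0.063 SE). Epha3 was highest in SMCs, with 895, 835, 942 and 849.5 in MLCs, 1889.96, 1736, 1253 and 1339 in SMCs, 215, 210.5, 155 and 188 in APCs and 359, 376, 286 and 355 in FIPs. It was called higher in both SMCs and MLCs than in each progenitor (SMCs minus FIPs, log2 2.16 ± 0.13 SE, limma adjusted p = 3.17e-11).

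Epha4, a receptor of both ephrin classes, was lowest in FIPs, with 456, 364, 504 and 456 in MLCs, 589.6, 413, 389 and 384 in SMCs, 467, 479, 568 and 498 in APCs and 212, 151, 207 and 213 in FIPs. MLCs, SMCs and APCs overlapped, and each exceeded FIPs (APCs minus FIPs, log2 1.37 ± 0.14 SE, limma adjusted p = 1.62e-07). Epha7 was lower in SMCs, at 50.02 ± 8.02, than in APCs (167 ± 6.48; log2 -1.73 ± 0.15 SE) and FIPs (139 ± 11.8; log2 -1.46 ± 0.15 SE), with 99.7 ± 20.49 in MLCs.

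The 13 members called higher in MLCs in all 3 pairs have an SMC mean at least 2-fold below the MLC mean by that choice. For 12 of the 13, the SMC mean also lay above those of both progenitors. The exception was Efnb2, lower in SMCs than in FIPs (log2 -1.35 ± 0.12 SE). How many of all genes had that order was not counted. For Efna2 the step from SMCs (309) to APCs (274) was not called (limma adjusted p = 0.115). Nor was the step of Sema3a from SMCs (475) to FIPs (455; limma adjusted p = 0.779). As a percent of the MLC mean, the SMC mean ran from 5.70% (Ephb1) and 6.13% (Epha5) over 15.3% (Epha2), 16.8% (Plxnb1), 19.1% (Plxna4) and 22.9% (Sema3f) to 38.9% (Efna2). Of the 8 mesothelial markers, 7 stood in SMCs at 4.45% to 8.77% of their MLC mean and Wt1 at 25.5%. Thus 11 of the 13 members were at a larger fraction of the MLC level in SMCs than those 7 markers, and 3 (Efna1, Sema3a and Efna2) were above Wt1. Wt1 itself averaged 3023 in SMCs, 3996 in APCs and 2880 in FIPs, so its SMC level did not stand apart from the progenitors. Across the SMC libraries, replicate 4, which had the lowest sum of mesothelial markers (9423), was the lowest for 7 of the 13 members and the highest for none, and replicate 3, which had the highest sum (14979), was the highest for 5 and the lowest for 2, counts that replicate 2 (11452) shared. The part of the mesothelial transcripts in the SMC values was not tested.

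**Figure D5:**
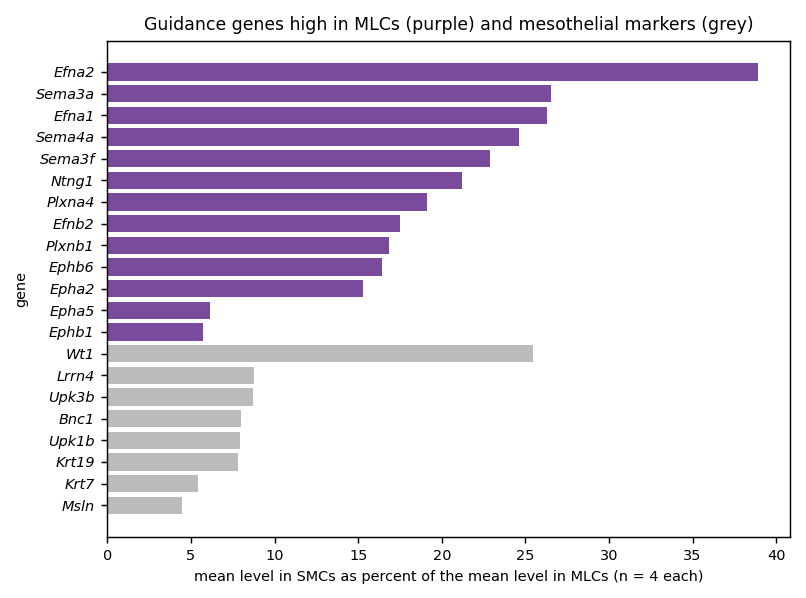
Mean normalized count in SMCs as a percent of the mean in MLCs (n = 4 libraries each) for the 13 guidance genes called higher in MLCs in all 3 pairs (purple) and for 8 mesothelial marker genes (grey). The guidance genes run from 5.70% to 38.9% and the markers from 4.45% to 25.5%.

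Further genes of the same pathways were taken from lists fixed with earlier results of these data known. Of 24 tested co-receptors and further ligands, 7 were higher and 5 lower in MLCs than in APCs, 9 higher and 6 lower in MLCs than in FIPs, and 6 higher and 9 lower in MLCs than in SMCs. In SMCs 9 were higher and 2 lower than in APCs, and 9 higher and 3 lower than in FIPs, and in APCs 4 were higher and 4 lower than in FIPs. Either way, 50% of the list was called in MLCs against APCs (29.6% of all genes), 62.5% in MLCs against FIPs (31.1%) and 62.5% in MLCs against SMCs (27.9%). The shares were 45.8% in SMCs against APCs (17.2%), 50% in SMCs against FIPs (17.9%) and 33.3% in APCs against FIPs (10.4%). The median log2 difference of this list was 0.14 for MLCs minus FIPs, -0.58 for MLCs minus SMCs and 0.60 for SMCs minus FIPs, against 0.018, 0.037 and 0.0057 over all genes. Flrt2, an adhesion protein that binds Unc5 receptors, averaged 12489 ± 849 in MLCs, against 4878 ± 660 in SMCs, 1942 ± 168 in APCs and 3960 ± 156 in FIPs (MLCs minus SMCs, log2 1.36 ± 0.083 SE, limma adjusted p = 2.47e-11). Dcc and Neo1 were named after their values were seen, as the other netrin receptors. Dcc, the attractive one, was at 0.98 ± 1.15 in MLCs and 42.1 ± 27.5 in SMCs, with 77.8 ± 11.6 in APCs and 22.1 ± 4.97 in FIPs, and like Unc5c it was lower in MLCs in all 3 pairs (limma). Neo1 averaged 15643 ± 643 in MLCs, against 8296 ± 460 in SMCs, 6784 ± 243 in APCs and 7400 ± 217 in FIPs. Gpc1, a glypican that binds Slits, averaged 369 ± 30.8 in MLCs and 2189 ± 298 in SMCs, with 580 ± 37.4 in APCs and 207 ± 33.0 in FIPs, and was higher in SMCs than in each other population (limma). Kdr, a vascular endothelial growth factor receptor that joins with neuropilins, averaged 2485 ± 281 in MLCs, against 826 ± 48.4 in SMCs, 207 ± 45.3 in APCs and 85.7 ± 28.8 in FIPs. Its ligand Vegfa averaged 861 ± 35.5 in MLCs and 2928 ± 291 in SMCs, with 5780 ± 882 in APCs and 5569 ± 285 in FIPs.

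Of 48 intracellular effectors, 8 were higher and 11 lower in MLCs than in APCs, 9 higher and 15 lower in MLCs than in FIPs, and 7 higher and 11 lower in MLCs than in SMCs. Of the same 48, 8 were higher and 3 lower in SMCs than in APCs, 9 higher and 5 lower in SMCs than in FIPs, and 3 higher and 5 lower in APCs than in FIPs. Either way, 39.6% of the list was called in MLCs against APCs (29.6% of all genes), 50% in MLCs against FIPs (31.1%) and 37.5% in MLCs against SMCs (27.9%). The shares were 22.9% in SMCs against APCs (17.2%), 29.2% in SMCs against FIPs (17.9%) and 16.7% in APCs against FIPs (10.4%). Mical2, an enzyme of the Mical family that takes actin filaments apart, averaged 2509 ± 83.1 in MLCs, against 727 ± 200 in SMCs, 88.2 ± 20.2 in APCs and 51.7 ± 14.1 in FIPs. Srgap1, which acts downstream of Robo receptors, averaged 241 ± 34.0 in MLCs and 523 ± 102 in SMCs, with 1126 ± 166 in APCs and 2608 ± 119 in FIPs, in the same order of populations as Robo1, and all 6 of its pairs were called. Fyn, a kinase used by several guidance receptors, averaged 330 ± 35.6 in MLCs, against 2562 ± 210 in SMCs, 3467 ± 163 in APCs and 6620 ± 286 in FIPs. Of 11 enzymes that cleave guidance proteins, 1 was higher and 3 lower in MLCs than in APCs, 5 were lower in MLCs than in FIPs, and 2 were higher and 2 lower in MLCs than in SMCs. In each of the other 3 pairs 1 was lower and none higher, or 9.09% of the list, under the share of all genes in all 3. In the pairs with MLCs the called share was 36.4% against APCs, 45.5% against FIPs and 36.4% against SMCs. Pcsk6, a proprotein convertase, averaged 2741 ± 172 in MLCs and 1159 ± 243 in SMCs, with 2616 ± 121 in APCs and 14751 ± 1612 in FIPs. Pcsk5, its relative, averaged 620 ± 22.2 in MLCs, against 6661 ± 283 in SMCs, 5348 ± 164 in APCs and 5810 ± 375 in FIPs.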

How the data were processed

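RNA sequencing of 4 sorted populations (4 libraries each) gave 1 deposited table of 27179 rows and 16 columns, all of which were used (0 columns of per-sample values were left aside). The deposited signal values are normalized counts: in each library they are whole reads multiplied by 1 factor, as found from the values themselves (100% whole within a tolerance of 0.01). Trim Galore 0.4.1, DESeq2 1.6.3, HISAT2 2.0.1 and featureCounts 1.4.6, with the builds GRCm38 and mm10, are named in the submitters' processing notes. Strand setting, annotation and treatment of multi-mapped reads were not given in the sources used here, so overlapping genes are uncertain. Columns headed SMLCs were taken as the SMC samples from their matching numbers and the titles. Of the rows, 1275 have no symbol. The recovered reads give the depth of each library.

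Genes with a value of at least 10 in at least 4 libraries (15024) were tested with limma 3.58.1 (R 4.3.3) on log2(value + 1), in 1 fit over the 16 libraries with a mean-dependent prior variance (trend), two-sided, with Benjamini-Hochberg adjustment over all genes tested in a pair. A call needed an adjusted p under 0.05 and a 2-fold difference; the pseudocount of 1 understates the fold of low genes. All members are accounted for by role. Named with values are, per pair, up to 10 called members with the largest rise and up to 10 with the largest fall (mean of at least 100 in the higher population), every such member called in all 3 pairs of 1 population, and the 3 with the highest mean in each role; of the further lists, up to 4 genes with the smallest adjusted p in a pair. Other genes were named after their values were seen. Members and lists were chosen with earlier results of these data known. Levels per kb use union exon lengths from GENCODE M21 on GRCm38. The scripts were tested on simulated data. Alternatives were other pseudocounts and filters, scaling to equal totals, quantile normalization, a replicate block, fits of the pair only, leaving out each library, and edgeR 4.0.16 on the recovered reads of 14 libraries, which made 20043 calls over all genes and the 6 pairs where limma made 20145. FIPs replicate 1 and APCs replicate 2 were left out of that last fit because the worth of 1 read is near 1 in them. Python 3.11.15 was used for tables and figures.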

Additional observations from a re-analysis of the deposited data

Results flagged for a closer look

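Of 183 groups of 4 libraries with a mean of at least 100 normalized counts of a guidance gene, 11 held 1 library far from the other 3, and chance alone flags about 1 in 20 such groups. In SMCs replicate 1 stood high for 4 genes: the Eph receptor Epha4 (589.63, the others 384 to 413), the ligand Slit2 (7892.6, the others 6009 to 6261), the netrin receptor Unc5c (812.84, the others 349 to 418) and the membrane semaphorin Sema5a (14037, the others 8698 to 8954). In FIPs replicate 2 stood low for Epha4 (150.69, the others 207 to 213) and Robo1 (1805.6, the others 1969 to 1996) and high for Unc5b (141.45, the others 99.8 to 106). In APCs replicate 4 stood low for the plexins Plxna1 (2737.3, the others 3731 to 3764) and Plxna2 (683.03, the others 1030.3 to 1044.4). Ephb6 was high in FIPs replicate 3 (185.22, the others 172 to 174) and Sema3b in MLCs replicate 1 (1647.1, the others 1479 to 1505).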

How the results depend on the processing

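No call changed direction in any alternative, and of the 187 calls of members over the 6 pairs 0 to 18 were lost per alternative. Quantile normalization lost 18 and left 13 members called higher in SMCs than in APCs in place of 20, a pseudocount of 8 lost 16 and one of 0.1 lost 6, equal totals lost 7, edgeR on the recovered reads of 14 libraries lost 4, as did limma on those 14 libraries (an alternative chosen after seeing the data), and leaving out 1 library lost 1 to 7. The count of members called higher in SMCs in all 3 of its pairs was 2 as reported and 4 without the filter on low values, 4 with edgeR and 2 to 4 when 1 library was left out, the 4 coming without FIPs replicate 2; the cause was not tested. The other counts of members called higher or lower in a pair, or higher in all 3 pairs of 1 population, stayed within 1.5 times the reported one; members lower in all 3 pairs are covered in the report. The labels do not say that a replicate number marks shared animals. Same-numbered libraries of different populations had correlated deviations of -0.034 to 0.17 (median 0.059, and -0.019 for other numbers). Of the 24 values, 23 were above 0 and 6 over 0.1, and 8 of 16 libraries were closest to their own number. Same-numbered libraries thus deviated together slightly more than others did. The main fit still did not pair them, because the labels name no shared animals. With a replicate block 1 of the 187 calls was lost, Efna3 in MLCs against APCs. Without APCs replicate 4 and SMCs replicate 3 together, the shallowest libraries, 7 were lost. Equal totals moved the median of all genes by 0.34 on the log2 scale for MLCs minus FIPs, 0.22 for SMCs minus FIPs, 0.25 for APCs minus FIPs and 0.11 for MLCs minus SMCs, and quantile normalization by -0.13 for MLCs minus APCs and -0.16 for MLCs minus FIPs. Depth limits the 8 members under the filter on low values, which were not tested.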
